A study of Homo sapiens with 4 samples.

Results

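Translation initiation factors (eIFs) and elongation factors (eEFs) are the soluble proteins that bring a ribosome to an mRNA, start it at the right codon and move it along the message. Rows of the deposited gene table were taken as members when their Ensembl identifier carries a protein-coding symbol that begins with EIF or EEF and a digit from 1 to 6. The pattern matched 71 rows, and leaving out EIF2AK2, 1 Y-linked copy and 1 readthrough transcript that is not protein coding gave 68 genes of the 20348 in the table. They fall into EIF1 (4 genes), EIF2 (14), EIF3 (14), EIF4 (16), EIF5 together with EIF6 (6, called the EIF5 group) and EEF (14). The rule itself reads names and no measured value, though it was written with earlier results of these data known.

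Both cell lines are human leukemia lines: K562 comes from a chronic myeloid and THP-1 from an acute monocytic disease. Each was cultured for 72 h with DMSO, the solvent control, or with 100 nM periplocin, a cardiac glycoside from Cortex periplocae. Within a line, no allele or transgene separates periplocin from DMSO. The sample titles call the controls blank, whereas DMSO is the name in the methods and in the library names. Poly-A RNA was sequenced from 1 library per condition, 4 in all, so no difference below has a replicate check.

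Library totals lay between 16381149 and 20622694 expected counts. Mitochondrially encoded genes took a smaller share of counts in periplocin, 2.07% against 5.62% with DMSO for K562 and 3.92% against 5.24% for THP-1. All 8 erythroid markers looked up for K562 were at or above 1 CPM, counts scaled to a library total of 1e6, in both K562 libraries, and their summed level was 2154 CPM in DMSO and 9008 CPM in periplocin. Of 8 monocytic markers looked up for THP-1, 8 in the DMSO library and 7 in the periplocin library reached 1 CPM. T cell, B cell and fibroblast markers summed to less than 10 CPM in every library, whereas epithelial markers summed to 273 CPM in K562 DMSO and 315 CPM in K562 periplocin. All CPM values are shares of a library: from bulk RNA, fewer transcripts of these genes per cell and more of all others cannot be told apart.

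As background, initiation begins when eIF2, loaded with GTP and the initiator tRNA, joins the small ribosomal subunit with eIF1, eIF1A, eIF3 and eIF5. The eIF4 factors bind the mRNA cap, unwind the leader and recruit this complex, and eIF5B joins the large subunit. In elongation, eEF1A delivers aminoacyl-tRNAs, the eEF1B complex recharges eEF1A with GTP, and eEF2 moves the ribosome by a codon. Many mRNAs of ribosomal proteins and elongation factors begin with a C followed by a run of pyrimidines, the 5′ terminal oligopyrimidine (TOP) tract, through which mTOR signalling and LARP1 control their translation and stability.

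The start-site stretches below are shown because the factors with the highest counts are textbook TOP genes and several of them were among those that were lower in periplocin. They were read from RefSeq promoter entries on GRCh38.p14 (EEF1B2 has another entry without a tract), each with 8 bases before the annotated start and 22 from it, printed 5′ to 3′ on the strand of the gene. Capitals mark a C followed by at least 4 bases that are C or T, where such a tract starts within 5 bases of the annotated start. The first 12 are all the factors with an entry and enough counts that have a C at the annotated start, followed by at least 4 such bases.
EEF1A1, chr6:73521011-73521040, minus strand: tgaacgttCTTTTTCgcaacgggtttgccg
EEF1B2, chr2:206159887-206159916, plus strand: cttcgggtCCTTTTTCCTCTCTTCagcgtg
EEF2, chr19:3985442-3985471, minus strand: tcagcgttCTCTTCCgccgtcgtcgccgcc
EIF4B, chr12:53006448-53006477, plus strand: atccgggtCTTTTgcgttctctttccctct
EIF2A, chr3:150546779-150546808, plus strand: agcggtttCTCTTTCCgggacaacatggcg
EIF2S3, chrX:24054948-24054977, plus strand: tttCCTTCCTCTTTTggcaacatggcgggc
EIF3D, chr22:36529145-36529174, minus strand: catgtttCCTCTTTTCCTggtttctcaaga
EIF3F, chr11:7987329-7987358, plus strand: tccgCCTCCTTCTTTCTCgacaagatggcc
EIF3M, chr11:32583823-32583852, plus strand: ccagttCCCTTTTCCggtcggcgtggtctt
EIF4A2, chr3:186783569-186783598, plus strand: gccgctgtCTTTTCagtcgggcgctgagtg
EIF2D, chr1:206612444-206612473, minus strand: agccgggCCCTTTTCgcggccgggccccag
EIF3K, chr19:38619180-38619209, plus strand: tccaccaCCTCTTCCTgttcccgtccttga
The other 4 are the factors with no tract within 5 bases that had the highest mean CPM, shown for contrast and taken by level, not by response. EEF1G, EIF4H and EIF3B have a tract within 20 bases, and EIF4A1 has none there.
EEF1G, chr11:62573870-62573899, minus strand: ggcggcttactttgcggcagcgccgagaac
EIF4A1, chr17:7572817-7572846, plus strand: cactccgccctagtttctaaggatcatgtc
EIF4H, chr7:74174348-74174377, plus strand: cgctcaccctggttcctctcggagcggaga
EIF3B, chr7:2354819-2354848, plus strand: gcacgcacatggctgggctgtagccgtcgc

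Most translation factors were lower in periplocin in both lines. The 68 genes together took 4.21% of all counts with DMSO and 2.62% with periplocin in K562, and 3.72% with DMSO and 2.52% with periplocin in THP-1. A log2 ratio is the level in periplocin over that in DMSO after TMM scaling of the pair, and its bracketed range is the exact (Clopper-Pearson) binomial 95% interval of the pair of counts, which covers counting error only. The summed log2 ratio was -0.70 (-0.70 to -0.69) in K562 and -0.55 (-0.56 to -0.55) in THP-1. Without EEF1A1, the gene with the most counts, it was -0.44 in K562 and -0.51 in THP-1.

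Of the 68 genes, 64 had at least 20 counts in each pair of libraries. EEF1AKMT4-ECE2, EIF4E1B, EIF2S3B and EIF5AL1 did not, with at most 4 counts in any library. In K562, 47 of the 64 were below their DMSO level, against 50.8% of all 12399 genes that passed the same filter, and 27 were lower by at least 1.5-fold, against 22.6% of all genes. Only 5 were higher by at least 1.5-fold (19.8% of all genes). In THP-1, 53 of the 64 were below their DMSO level (51.5% of all 12989 genes), 22 were lower by at least 1.5-fold (22.0%) and 3 were higher by as much (18.1%). The median log2 ratio of the members was -0.48 in K562 and -0.43 in THP-1, beside -0.01 and -0.03 over all genes tested. Where the mean over a pair was 10 CPM or more, the all-gene medians were 0.02 and 0.01 and those of the members -0.48 over 59 genes and -0.36 over 56. Among those 59 members in K562, 25 were lower and 5 higher by at least 1.5-fold (17.6% and 17.7% of genes), and 5 fell and 1 rose past 2-fold (7.43% and 6.77%). Among the 56 in THP-1, 16 were lower and 3 higher by at least 1.5-fold (16.7% and 14.7%), and 4 fell and 0 rose past 2-fold (6.59% and 5.32%).

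Counting error did not cover most of these ratios. In K562, 41 of 64 lay below DMSO with the whole interval (38.4% of genes) and 15 above it (37.6%). In THP-1, 46 lay below (38.4%) and 9 above (36.7%). Below DMSO by any amount in both lines were 43 of 64, against 31.9% of genes.

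The shares past 2-fold downward were near those of all genes. In K562, 7 of 64 fell by at least 2-fold (12.2% of all genes did) and EIF3G alone rose (9.70%). With total counts less mitochondrially encoded and globin genes as the scale, 11 fell and 0 rose, since EIF3G was then at 0.98 and EEF1A1, EEF1B2, EEF1E1 and EIF3D passed 2-fold. That scale put the median of all genes in K562 at -0.04. The share of all genes past 2-fold was not counted there, so the 11 have no matching background. In THP-1, 8 of 64 fell (11.3%) and 0 rose (8.92%). EEF1AKMT4, EEF2KMT and EIF3E fell past 2-fold in both lines, that is 3 of 64 against 2.96% of 11337 genes tested in both, while 0 rose in both (2.06%) and 0 moved in opposite directions (1.57%). EEF1AKMT4 in THP-1, with 45 and 19 counts, lost the call with DESeq2 size factors (-0.98) and with a prior count of 2 (-0.95), which leaves 2 of 64. Among genes averaging 10 CPM or more, EIF3E was the 1 member past 2-fold in both lines. With the scale less mitochondrially encoded and globin genes, EEF1B2 joined and the count was 4. The share of all genes past 2-fold in both lines was not counted under these other settings, so these counts have no matching background. At 1.5-fold, 13 of the 64 were lower in both lines (8.41% of genes), 0 were higher in both (5.77%) and 0 moved in opposite directions (4.82%).

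By group, the EEF genes had the lowest median in both lines, and the median nearest to or above 0 was that of EIF5 in K562 and of EIF1 in THP-1. The EEF median log2 ratio was -0.68 in K562 and -0.69 in THP-1 over 13 genes, and 12 of the 13 were below DMSO in each line. The EIF3 median was -0.54 and -0.56 over 14 genes, with 11 of 14 below DMSO in K562 and 14 of 14 in THP-1. EEF1D in both lines, EIF3G and EIF4ENIF1 in THP-1 and EIF4A1 in K562 lie so near 0 that their side depends on the scaling. Over the scalings, the count of all members below DMSO was 46 to 48 of 64 in K562, and 51 to 54 of 64 for THP-1. For EIF2 it was -0.49 and -0.31 over 13 genes, for EIF4 -0.21 and -0.16 over 15, for EIF5 -0.07 and -0.45 over 5, and for EIF1 -0.12 and 0.17 over 4. Members of a group are not replicates, so these medians are given without a test.

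**Figure D1:**
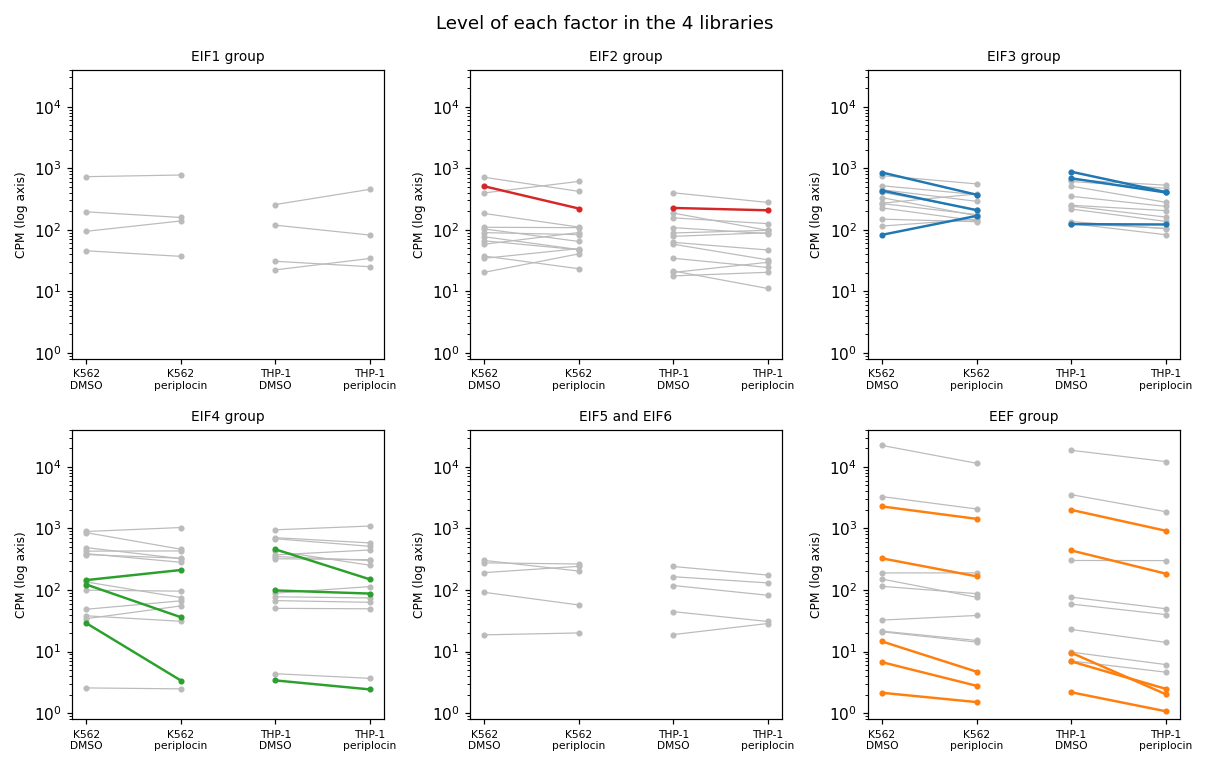
CPM on a log axis in the 4 libraries for the 63 factors above 0.5 CPM in each of them, 1 panel per group, with a line joining DMSO and periplocin within a cell line. Coloured lines are genes past 2-fold in at least 1 line; EIF3CL, at 0 counts in THP-1 periplocin, is not drawn, and EEF1A1 is the top line of the EEF panel, at 22388 CPM in K562 DMSO and 11478 CPM in K562 periplocin.

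The elongation factors held most of the counts. EEF1A1, the main isoform of eEF1A, spans bases 73515750 to 73523797 of chromosome 6 (GRCh38, minus strand). Its level was 22388 CPM with DMSO and 11478 CPM with periplocin for K562, and 18667 CPM and then 12246 CPM for THP-1. Both periplocin libraries lay below both DMSO libraries, at 50.9% of DMSO in K562 (log2 ratio -0.97, -0.98 to -0.97) and 66.1% in THP-1 (-0.60, -0.60 to -0.59). EEF1A2, the isoform known from muscle and neurons, was at 32.5, 38.6, 59.2 and 39.9 CPM in the same order, a log2 ratio of 0.24 (0.07 to 0.41) in K562 and -0.56 (-0.69 to -0.42) in THP-1. Per kb of exon, EEF1A1 was 569 times EEF1A2 in K562 DMSO and 246 times in K562 periplocin, whereas in THP-1 the ratio was 260 and 253. EEF1A1 has many processed pseudogenes, and reads shared with them could have been divided between copies.

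EEF2, the translocase, had 3297 CPM in K562 DMSO and 2076 CPM in K562 periplocin, then 3551 and 1879 CPM in THP-1. Both periplocin libraries were below both DMSO libraries, with log2 ratios of -0.68 (-0.70 to -0.66) and -0.91 (-0.93 to -0.89). EEF2K, the kinase that inactivates eEF2 by phosphorylation, was also lower, from 115 to 87.3 CPM in K562 and from 76.6 to 49.7 CPM in THP-1, with log2 ratios of -0.41 and -0.61.

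The eEF1B exchange complex did not move as a unit. EEF1G, its gamma subunit, went from 2281 to 1434 CPM in K562 and from 2010 to 921 CPM in THP-1, with log2 ratios of -0.68 (-0.70 to -0.66) and -1.11 (-1.14 to -1.09). EEF1B2, the catalytic subunit, went from 327 to 167 CPM in K562 and from 440 to 185 CPM in THP-1, with log2 ratios of -0.98 (-1.05 to -0.91) and -1.24 (-1.30 to -1.18). EEF1D, the delta subunit with the other exchange activity, stayed at 190 CPM in both K562 libraries and at 302 and 301 CPM in THP-1, where the intervals of its log2 ratio were -0.08 to 0.07 and -0.05 to 0.06. EEF1E1, which belongs to the multisynthetase complex, was at 150 and 76.3 CPM in K562 but only 7.03 and 4.63 CPM in THP-1. EEF1B2 shares exon bases with NDUFS1 on the other strand, and the sources used here do not say that counting used the strand.

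The lysine methyltransferases of the elongation factors had low counts, and the 5 that were detected lay below DMSO in both lines. EEF2KMT, which methylates eEF2, fell from 14.6 to 4.71 CPM in K562 and from 9.60 to 2.03 CPM in THP-1. Its log2 ratio was -1.64 (-2.03 to -1.27) in K562 and -2.23 (-2.78 to -1.71) in THP-1, the lowest value in THP-1 of any member counted above 3 in both libraries. EEF1AKMT4, which shares exon bases with its readthrough gene, had 110 counts with DMSO and 46 with periplocin in K562, then 45 and 19 in THP-1, with log2 ratios of -1.28 (-1.81 to -0.78) and -1.01 (-1.87 to -0.21). EEF1AKMT1 fell in THP-1 from 143 to 44 counts (-1.47, -1.99 to -0.97), while its change from 35 to 25 counts in K562 had an interval of -1.31 to 0.27. EEF1AKMT2 went from 20.9 to 14.3 CPM in K562 and from 22.9 to 14.1 CPM in THP-1, and EEF1AKMT3 from 21.5 to 15.2 and from 9.80 to 6.15 CPM. Summed over the 6 listed genes, with EEF1AKMT4-ECE2 at 0 counts, they were at 57.9% of DMSO in K562 and 50.7% in THP-1. On the other strand, EEF2KMT shares exon bases with ALG1 and EEF1AKMT4 with CAMK2N2.

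**Figure D2:**
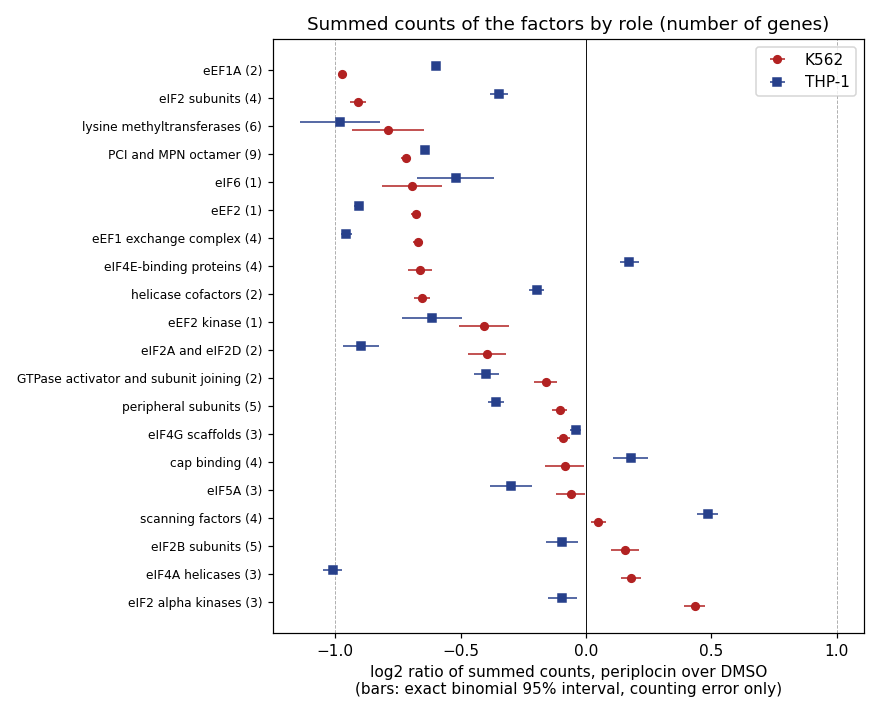
Log2 ratio of summed counts, periplocin over DMSO, for each role among the factors (number of genes in brackets), with circles for K562, squares for THP-1 and bars for the exact binomial 95% interval of counting error. The eEF1A, eIF3 octamer and eEF2 sums lie below 0 in both lines, whereas the eIF4A helicases are at 0.18 in K562 and -1.01 in THP-1.

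In eIF3, the large scaffold that holds the small subunit open, the 9 genes of the octamer built from PCI and MPN domains were lower by -0.72 (K562) and -0.64 (THP-1) as summed log2 ratios. The 5 other subunits summed to -0.10 and -0.36. EIF3E went from 852 to 371 CPM in K562 and from 879 to 411 CPM in THP-1, so that both periplocin libraries were at less than 50% of DMSO (43.2% and 47.2%). Its log2 ratios were -1.21 (-1.25 to -1.17) and -1.08 (-1.12 to -1.04). EIF3L, another octamer subunit, fell from 434 to 209 CPM in K562 (-1.07, -1.13 to -1.01) and was at 688 and 404 CPM in THP-1 (-0.76, -0.80 to -0.71). EIF3D, the subunit with a cap-binding activity of its own, was at 333 and 169 CPM in K562 and 350 and 240 CPM in THP-1, with log2 ratios of -0.99 and -0.53. EIF3J, a loosely bound subunit, had log2 ratios of -0.15 and -0.25. EIF3F, EIF3H, EIF3I, EIF3M and EIF3A also lay below DMSO in both lines, between -0.95 and -0.48 in K562 and between -0.65 and -0.28 in THP-1.

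Other eIF3 subunits went the other way in K562. EIF3G, an RNA-binding subunit, rose there from 82.8 to 168 CPM (1.01, 0.92 to 1.10) and was at 123 and 122 CPM in THP-1 (-0.01, -0.09 to 0.08). EIF3B, the core scaffold of the peripheral module, was at 270 and 382 CPM in K562 (0.49) and at 250 and 205 CPM in THP-1 (-0.28). EIF3K was at 115 and 148 CPM in K562 (0.36) and at 136 and 104 CPM in THP-1 (-0.37). Within 1 complex the log2 ratios in K562 thus ran from -1.21 to 1.01, a span that counting error does not cover, whereas in THP-1 they lay below 0 apart from EIF3G, whose sign depends on the scaling (0.02 with DESeq2 size factors). EIF3G shares exon bases with P2RY11 on the other strand.

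EIF3C and EIF3CL are near-identical genes on chromosome 16, and how reads were divided between them is not known. EIF3C was at 760 and 557 CPM in K562 and at 513 and 280 CPM in THP-1. EIF3CL had 49 and 47 counts in K562, and 68 and 0 counts in THP-1, at least 19.3-fold lower against a floor of 3 counts. Summed, the copies had log2 ratios of -0.46 (-0.50 to -0.42) in K562 and -0.87 (-0.92 to -0.82) in THP-1, so the value of EIF3CL alone should be read as uncertain.

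Among the eIF2 genes, the subunits of eIF2 itself were lower in both lines and more so in K562. Summed counts gave a log2 ratio of -0.91 (-0.94 to -0.88) in K562 and -0.35 (-0.38 to -0.31) in THP-1. EIF2S2, the beta subunit, fell from 509 to 222 CPM in K562 (-1.21, -1.27 to -1.16) and was at 226 and 207 CPM in THP-1 (-0.11, -0.18 to -0.05). The log2 ratio in THP-1 was therefore 1.10 above that in K562, with a counting interval of 1.01 to 1.18. EIF2S3, the gamma subunit that binds GTP, was at 713 and 422 CPM in K562 and 399 and 278 CPM in THP-1 (-0.77 and -0.51). EIF2S1, the alpha subunit that stress kinases phosphorylate, had log2 ratios of -0.74 and -0.31.

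The eIF2B subunits, which recharge eIF2 with GTP, did not move together. EIF2B2 went from 20.3 to 40.6 CPM in K562 (0.99, 0.79 to 1.18) and from 34.4 to 24.4 CPM in THP-1 (-0.49, -0.66 to -0.31). EIF2B5, the catalytic subunit, was higher in both, from 58.2 to 90.2 CPM and from 78.2 to 89.5 CPM, and EIF2B4 had log2 ratios of 0.51 and 0.56. EIF2B3 was lower in both, at -0.70 and -0.94. EIF2B1 was at 110 and 108 CPM in K562, within counting error, and at 62.5 and 46.9 CPM in THP-1 (-0.40). EIF2A and EIF2D, which can bring initiator tRNA to the ribosome without eIF2, were at 103 and 64.6 CPM and at 89.9 and 83.3 CPM in K562, and at 187 and 98.0 CPM and at 58.3 and 32.4 CPM in THP-1. The interval of EIF2D in K562 reached from -0.23 to -0.01.

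The kinases of eIF2 alpha differed by line. EIF2AK1, the heme-regulated kinase HRI of red cell precursors, was at 397 and 610 CPM in K562 (0.61, 0.56 to 0.65) and at 156 and 126 CPM in THP-1 (-0.30, -0.38 to -0.22). In the same K562 pair the erythroid markers and the globin share (0.188% and 1.05% of counts) were higher in periplocin, and their part in this value was not tested. EIF2AK3, the endoplasmic reticulum kinase PERK, was at 37.4 and 23.3 CPM in K562 (-0.69, -0.88 to -0.51) and at 17.8 and 20.4 CPM in THP-1, where the interval of -0.01 to 0.42 includes 0. EIF2AK4, the amino acid sensor GCN2, was at 66.2 and 47.4 CPM in K562 (-0.49) and at 88.7 and 98.0 CPM in THP-1 (0.15). EIF2AK1 shares exon bases with AIMP2 on the other strand.

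Among the eIF4 factors, EIF4E3, EIF4A2 and EIF4EBP1 differed by more than 2-fold between the lines. EIF4A1 and EIF4A2 are paralogous helicases that unwind the leader. EIF4A2 was at 145 and 212 CPM in K562 (0.53, 0.46 to 0.61) but fell in THP-1 from 459 to 149 CPM (-1.61, -1.67 to -1.55), a difference between the lines of -2.14 (-2.24 to -2.04). EIF4A1 was at 428 and 432 CPM in K562 (0.00, -0.05 to 0.05) and at 431 and 253 CPM in THP-1 (-0.76, -0.81 to -0.70). Per kb of exon, EIF4A1 exceeded EIF4A2 by 3.41 times with DMSO and 2.36 times with periplocin in K562, and by 1.09 and 1.96 times in THP-1. EIF4A2 shares exon bases with RFC4 on the other strand, and EIF4A1 with the readthrough gene SENP3-EIF4A1 on its own. EIF4A3, the helicase of the exon junction complex, had log2 ratios of 0.44 and -0.05.

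EIF4E, the cap-binding protein itself, was nearly level, at 99.5 and 95.8 CPM in K562 and 67.3 and 63.1 CPM in THP-1, and both intervals (-0.17 to 0.04 and -0.20 to 0.03) include 0. EIF4E2, a cap-binding homolog tied to repression, was higher in both lines, from 34.2 to 55.2 CPM (0.68) and from 88.9 to 114 CPM (0.36). EIF4E3, a further homolog, fell in K562 from 28.9 to 3.38 CPM, a log2 ratio of -3.10 (-3.53 to -2.70) and the lowest of the 64 in that line. In THP-1 it was at 3.39 and 2.43 CPM (-0.47, -1.06 to 0.10), so the K562 DMSO library alone stood high. EIF4E3 shares exon bases with other genes on both strands.

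The eIF4E-binding proteins, which block eIF4E until mTOR phosphorylates them, also split by line. EIF4EBP1 fell in K562 from 123 to 36.2 CPM (-1.77, -1.91 to -1.64) and was at 98.5 and 87.6 CPM in THP-1 (-0.16, -0.25 to -0.06). EIF4EBP2 was at 390 and 282 CPM in K562 (-0.48, -0.53 to -0.42) and at 372 and 447 CPM in THP-1 (0.28, 0.23 to 0.32). Per kb of exon, EIF4EBP2 was 0.470 times EIF4EBP1 in K562 DMSO and 1.15 times in K562 periplocin, and 0.559 and 0.755 times in THP-1. EIF4EBP3 was below 5 CPM in all 4 libraries, and its intervals include 0. It shares exons with the readthrough gene ANKHD1-EIF4EBP3. EIF4ENIF1, which carries eIF4E into the nucleus, had log2 ratios of -0.31 and -0.01.

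Of the eIF4G scaffolds, EIF4G2 was somewhat higher in both lines, from 894 to 1037 CPM (0.20, 0.17 to 0.24) and from 952 to 1096 CPM (0.22, 0.19 to 0.24). Its product lacks the eIF4E-binding part and serves cap-independent initiation. EIF4G1, the cap-dependent scaffold, was lower, from 488 to 324 CPM (-0.60) and from 681 to 513 CPM (-0.40). EIF4G3 was at -0.85 in K562 and -0.20 in THP-1. EIF4B, a cofactor of the helicases, was at 855 and 460 CPM in K562 (-0.90, -0.94 to -0.86) and 710 and 583 CPM in THP-1 (-0.27, -0.31 to -0.24). EIF4H, the other cofactor, was at 377 and 328 CPM in K562 and 323 and 311 CPM in THP-1.

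Among the scanning factors, EIF1 and EIF1B were above DMSO in both lines. EIF1, which guards start codon choice, was at 729 and 776 CPM in K562 (0.08, 0.04 to 0.12) and at 257 and 454 CPM in THP-1 (0.83, 0.78 to 0.88), the highest log2 ratio of a member in that line. EIF1B, its paralog, was higher in both, from 94.5 to 139 CPM (0.55) and from 22.3 to 34.1 CPM (0.63). EIF1AX, which carries eIF1A, was lower in both, from 196 to 158 CPM and from 119 to 82.0 CPM, and EIF1AD, whose product resembles it, had log2 ratios of -0.31 and -0.28.

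None of the 5 late factors with at least 20 counts passed 2-fold in either line, and EIF5AL1 had too few counts. EIF5, the activator of GTP hydrolysis by eIF2, was at 303 and 203 CPM in K562 (-0.59) and 241 and 175 CPM in THP-1 (-0.45). EIF5B was at 192 and 243 CPM in K562 (0.33) and 165 and 130 CPM in THP-1 (-0.32). EIF5A, the hypusine-bearing factor that helps peptide bond formation at difficult sequences, was at 276 and 265 CPM in K562 (-0.07, -0.13 to -0.01) and 118 and 82.2 CPM in THP-1 (-0.51, -0.61 to -0.42). Its paralog EIF5A2 had 306 and 332 counts in K562 (0.09, -0.14 to 0.32) and was at 18.9 and 28.6 CPM in THP-1 (0.61, 0.42 to 0.80). EIF6, which keeps the ribosomal subunits apart, was lower in both, at -0.69 and -0.52.

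**Figure D3:**
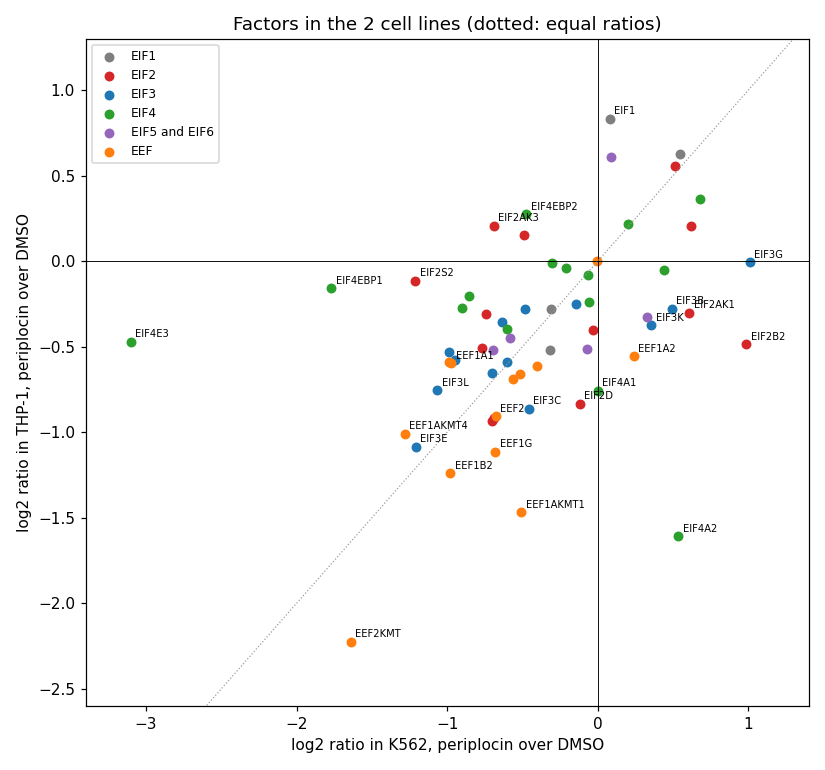
Log2 ratio in K562 (x axis) against that in THP-1 (y axis) for 63 factors, coloured by group, with a dotted line where both are equal (EIF3CL, at 0 counts in THP-1 periplocin, is left out). EEF2KMT, EIF3E and EEF1B2 lie at -0.98 or lower in both lines, EIF4E3, EIF4EBP1 and EIF2S2 are past 2-fold in K562 alone, and EIF4A2 in THP-1 alone.

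Between the lines, the log2 ratio in THP-1 was higher by at least 2-fold for EIF2S2, EIF4E3 and EIF4EBP1, that is 3 of 64 against 12.2% of 11337 genes, and lower by as much for EIF2B2, EIF3CL, EIF3G and EIF4A2 (4 of 64 against 10.4%). EIF3G lost this call with DESeq2 size factors, at a difference of -0.98. At 1.5-fold, 9 of 64 were higher in THP-1 (21.3% of genes) and 13 lower (22.2%). In 7 of 64 the ratio lay above DMSO in K562 and below it in THP-1, each with its whole interval (9.62% of genes), and 2 had the reverse, as did 1135 of the 11337 genes. A single fit to the 4 libraries with terms for line and for treatment takes the disagreement of the lines as its error and leaves 1 residual degree of freedom. By edgeR's quasi-likelihood test 0 of 64 members passed a Benjamini-Hochberg adjusted p of 0.05, as did 0 of all 13584 genes. Unadjusted p was under 0.05 for 12 members that were lower (5.68% of genes) and 0 that were higher (5.62%). Those 12 were EEF1B2, EEF1E1, EEF1G, EEF2, EEF2KMT, EIF2A, EIF2B3, EIF3D, EIF3E, EIF3F, EIF3L and EIF3M. DESeq2 with the same terms gave an adjusted p of 0.016 for EIF3E and 0.036 for EEF1B2 and for no other member, both lower, where 0.443% of genes tested passed in that direction and 0.622% in the other. Unadjusted p of DESeq2 was under 0.05 for 13 of 63 members that were lower (4.57% of genes) and 0 that were higher (5.2%).

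Promoter entries were found for 54 of the 68 factors and were searched for TOP tracts on the strand of the gene. A tract at the start means a C at the annotated start itself, followed by at least 4 bases that are C or T. It was present in 13 of 54 (24.1%), against 6.24% of 15843 protein-coding genes. A tract within 5 bases of the start was present in 23 of 54 (42.6%), against 28.0%, and within 20 bases in 35 of 54 (64.8%), against 57.6%. Of the 13, 12 had enough counts, those printed above, and EIF2S3B did not. Their median log2 ratio was -0.74 in K562, with 10 of 12 below DMSO, and -0.62 in THP-1, with 12 of 12 below. The 28 factors with no tract within 5 bases had medians of -0.31 and -0.32, with 20 of 28 below DMSO in K562 and 23 of 28 in THP-1. The 10 with a tract within 5 bases but without a C of a tract at the start had medians of -0.28 and -0.02. EIF4G1, whose tract crosses the start with a T there, is among those 10. With the window of 20 bases, factors with a tract had medians of -0.47 in K562 and -0.46 in THP-1, and those without one had -0.31 and -0.36.

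Among all genes with an entry, those with a tract at the start had medians of -0.18 in K562 (456 of 751 below DMSO) and -0.22 in THP-1 (484 of 791), beside 0.00 and -0.01 for the rest. Within the factors, EIF4A2 and EIF3K, with a tract at the start, were higher in K562. EEF1G, EIF2B3 and EIF6, without a tract within 5 bases, were lower in both lines. The start used in these cells was not measured. The E-box CACGTG, a motif of MYC and related factors, was found in 14 of 54 promoters from 250 bases before to 50 after the start (25.9%), against 10.9% of all genes. Factors with an E-box had medians of -0.21 in K562 and -0.27 in THP-1, and those without one had -0.48 and -0.49. Over all genes with an entry, the K562 median was -0.01 both with and without an E-box. In THP-1 it was -0.06 with an E-box and -0.02 without. TGATGNAAN, a motif of ATF4, was found on either strand in 1 of 54 (EIF4E3), against 3.60% of genes.

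**Figure D4:**
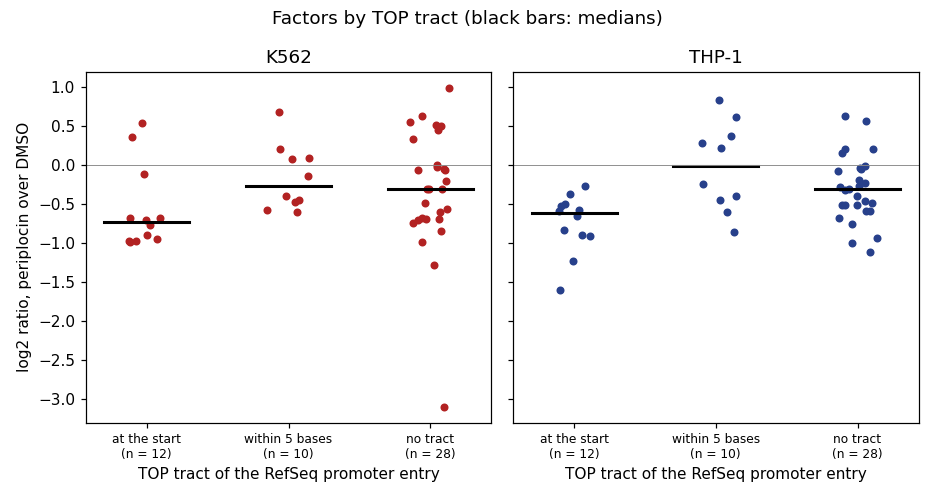
Log2 ratio of the factors in K562 (left) and THP-1 (right), split by the TOP tract of the RefSeq promoter entry, with black bars for medians. The classes are a tract with a C at the annotated start, another tract within 5 bases, and none within 5 bases. Some factors of the last class have a tract within 20 bases. The 12 factors with a tract at the start have medians of -0.74 and -0.62, and the classes overlap.

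The wider translation machinery was described by 63 further genes. Of these, 61 passed the count filter in K562, where 2 rose (9.70% of all genes) and 6 fell (12.2%) past 2-fold and the median log2 ratio was 0.13. In THP-1, 62 passed, 3 rose (8.92%) and 6 fell (11.3%), and the median was -0.08. These shares were near or below those of all genes. The factors had medians of -0.48 and -0.43. DPH5, which fell in both lines, and DPH2, which fell in THP-1, act in building diphthamide, the modified histidine of eEF2. DPH5 went from 42.9 to 15.6 CPM in K562 (-1.47) and from 15.4 to 4.68 CPM in THP-1 (-1.70). DPH2 went from 40.0 to 17.8 CPM in THP-1 (-1.16) and from 63.7 to 38.0 CPM in K562 (-0.75), whereas DPH3 was higher in both lines, at 0.59 and 0.79.

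The other genes of the list past 2-fold and averaging 10 CPM or more are given singly, as the list was not divided into branches. In K562, DDIT4, an inhibitor of mTOR complex 1, went from 524 to 124 CPM (-2.09), SESN2, another inhibitor, from 398 to 94.0 CPM (-2.09) and GTPBP2, which rescues stalled ribosomes, from 459 to 180 CPM (-1.36). TSC1 rose there from 64.8 to 174 CPM (1.41) and PAIP2, an inhibitor of the poly(A)-binding protein, from 97.2 to 201 CPM (1.03). The log2 ratios of these 5 genes in THP-1 ran from -0.08 to 0.63. There, PPP1R15A, the inducible subunit of the eIF2 alpha phosphatase, rose from 29.9 to 97.6 CPM (1.72), and PPP1R15B, the constitutive one, from 265 to 537 CPM (1.03). IMPACT, an inhibitor of GCN2 activation, fell from 49.8 to 22.0 CPM in THP-1 (-1.16), and had 119 and 52 counts in K562. NAT10, an RNA acetyltransferase, fell in THP-1 from 91.8 to 40.3 CPM (-1.17) and PRMT1, an arginine methyltransferase, from 95.8 to 44.3 CPM (-1.10).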

How the data were processed

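Poly-A RNA was measured in 1 library per condition. The authors deposited expected counts per gene, estimates that need not be whole (87.4% to 88.3% of values were), neither normalized nor pooled. They were rounded here, and 0 columns were left unused. The submitters' processing notes list HISAT2, StringTie 1.3.1 and hg38. The counting program, annotation and use of strand are not given in the sources used here. Symbols were matched for 20310 of 20348 identifiers, and positions and exon lengths came from GENCODE release 29 (20118 matched, GRCh38). Exons of 31 members overlap another listed gene.

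Ratios used TMM factors of edgeR 4.0.16 (R 4.3.3), a prior count of 0.125 and genes with at least 20 counts in the pair. With 1 library per condition no p-value was computed within a line. The floor was 3 counts. The edgeR fit over 4 libraries took genes for which 2 or more of them held 10 counts or more, and DESeq2 1.42.0 was its alternative. Run on simulated data, the edgeR fit recovered 200 of 200 changed genes with 1 other call among 13584. For the measured libraries its common coefficient of variation, the spread beyond counting error, was 0.317. How many changed genes the fit can recover in the measured libraries was not tested. Other alternatives were scalings, filters, prior counts, folds, unrounded counts and summed copies.

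The rule for genes given in full took the 2 of each role with the highest level, those past 2-fold, near-identical copies and, of 63 other translation genes, those past 2-fold averaging 10 CPM or more. DPH1, DPH3, DPH6, DPH7, DNAJC24 and the remaining members given with values were added after their values were seen. Members and lists were chosen with earlier results of these data known. Protein sequences were not used here. Python 3.11.15 made tables and figures.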

Additional observations from a re-analysis of the deposited data

Results flagged for a closer look

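Among the factors, 9 had a ratio on opposite sides of DMSO in the lines, each outside its counting interval, and with 1 library per condition these differences were not tested. In K562 periplocin 7 were higher while they were lower in THP-1, against 9.62% of all genes tested in both. The log2 ratio in THP-1 minus that in K562 was -2.14 for EIF4A2, -1.47 for EIF2B2, -0.91 for EIF2AK1, -0.79 for EEF1A2, -0.77 for EIF3B, -0.73 for EIF3K and -0.65 for EIF5B. The reverse held for EIF4EBP2, at 0.75, and EIF2AK4, at 0.65, as for 1135 of the 11337 genes.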

How the results depend on the processing

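Of the values for counts, group medians and tract medians under the alternatives, 154 stayed within their tolerance, which is 1.5 times for a count and a counting interval for a median. No scaling moved the median of all genes by 0.1 on the log2 scale, and 996 of the single ratios stayed within their interval while 13 left it with no change of direction. Total counts without mitochondrially encoded and globin genes gave 0 members higher and 11 lower past 2-fold in K562, where several factors lie close to 2-fold, and an EEF median of -0.71. The share of all genes past 2-fold was not counted at that scale. With all genes of at least 1 count, 2 members were higher in K562 and the EIF5 median there was 0.00990, by the entry of EIF5AL1 with 1 count. Among genes averaging 10 CPM or more, the EEF median in K562 was -0.62 and 4 members were lower in THP-1, since fewer genes were tested. At 1.5-fold the counts were 5 higher and 27 lower in K562 and 3 and 22 in THP-1. DESeq2 gave 2 members in the fit over 4 libraries where edgeR gave 0, and the cause was not tested. Requiring the tract at the start, chosen after seeing the data, gave medians of -0.74 and -0.62 for factors with a tract, against -0.53 and -0.52 within 5 bases. No paired analysis was possible because the labels give no replicate numbers and each condition has 1 library, beyond the fit over 4 libraries, which has cell line as a term. Leaving out a library removes the ratio of its line and does not alter that of the other. Counting error limits genes under about 100 counts.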
